A study of Mus musculus with 18 samples.

Results

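The circadian clock genes described here are the rows of each tissue table with the gene symbols Arntl, Clock, Npas2, Per2, Per3, Cry1, Cry2, Nr1d1, Dbp and Tef, 10 of 24054 genes listed. They were chosen by symbol, and all 10 passed the filter on low values in each tissue. The tables hold RNA-Seq values of the hypothalamus, pituitary and thyroid of male mice aged 3 months, of the strain given as C57BL/Ntac, which had no treatment. WT mice carried unmodified Thrb. THRB K146Q mice (K146Q mice) carried a global knock-in at the native Thrb gene that replaces a lysine in the DNA-binding domain of thyroid hormone receptor β with glutamine and removes a site for attachment of SUMO, a small protein modifier, in every cell that expresses the receptor. Each genotype had 3 mice by number, and each number had 1 library per tissue, 18 in all. Libraries with the same number are taken here to come from the same mouse. The WT mice were numbered 1, 2 and 43 and the K146Q mice 60, 62 and 83. The hour at which tissues were collected, and whether it was the same for all mice, is not given in the sources used here. In GENCODE M21 on GRCm38 (mm10), the genes at the centre of the results are Clock (chr5:76209868-76304792, minus strand), Npas2 (chr1:39193731-39363236, plus), Arntl (chr7:113207465-113314126, plus), Per2 (chr1:91415982-91459324, minus), Nr1d1 (chr11:98767932-98775333, minus) and Dbp (chr7:45705088-45710203, plus).

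The circadian clock is a transcriptional feedback loop that runs with a period of about a day in most cells of the body. Arntl (the gene of BMAL1) with Clock or its relative Npas2 forms the activating pair, which binds E-box elements and drives the Per and Cry genes, whose products return to inhibit the pair. Nr1d1 (REV-ERBα) is a repressor of Arntl that is itself driven by the pair, and Dbp and Tef are PAR bZIP transcription factors that bind D-box elements in target promoters. In most tissues the RNAs of Arntl, Clock and Npas2 peak at nearly the opposite time of day to those of Nr1d1, Dbp and Tef. The master clock lies in the suprachiasmatic nucleus of the hypothalamus, and the pituitary and thyroid have clocks of their own that follow it.

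The elements of the loop could be read in some of the promoters. RefSeq windows of GRCm38.p6, from 250 bases before to 50 after each annotated start, were at hand for 9 of the 10 genes, without Per2. The stretches with a match are shown here. The windows of Clock, Npas2, Cry2, Nr1d1 and Dbp held no match to the letters searched. Capitals mark the motif, and each sequence is written 5′ to 3′ on the strand of its gene. The Per3 stretch (chr4:151044786-151044900, minus strand) lies before the annotated start of the gene and holds 2 D-boxes. The Cry1 stretch (chr10:85185069-85185154, minus strand) and those of both Tef starts (chr15:81802506-81802591 and chr15:81811236-81811321, plus strand) also lie before the start and hold an E-box each. The Arntl stretch (chr7:113207529-113207557, plus strand) lies just after an annotated start and holds the core of a ROR element, the kind of site at which REV-ERB repressors and ROR activators compete.
Per3: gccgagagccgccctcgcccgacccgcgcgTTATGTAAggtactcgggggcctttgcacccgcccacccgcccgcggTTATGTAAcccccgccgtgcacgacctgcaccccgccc
Cry1: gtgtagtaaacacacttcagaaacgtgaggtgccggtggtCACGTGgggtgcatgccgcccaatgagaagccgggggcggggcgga
Tef, first start: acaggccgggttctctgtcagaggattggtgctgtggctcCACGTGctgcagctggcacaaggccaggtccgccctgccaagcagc
Tef, second start: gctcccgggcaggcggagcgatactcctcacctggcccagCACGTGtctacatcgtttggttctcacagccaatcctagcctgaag
Arntl: gaaggcagaaagTAGGTCAgggacggagg

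Among all 32851 mouse promoter windows, read on both strands, 7.15% held the E-box letters CACGTG, 0.938% the D-box letters TTATGTAA and 2.61% the ROR element core TAGGTCA. The cAMP response element TGACGTCA was in 1.79% of windows and in none of the windows of the 9 genes. These letters were searched as exact matches, and a match describes the window only.

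Library depth was 14902330 to 21230050 reads, and the clock genes were read with 38 to 5320 reads per library. Values are in CPM, read counts scaled by the authors to a common library total and then divided by a library factor, so their sums differ between libraries. The hypothalamus libraries carried markers of the suprachiasmatic nucleus (7 genes including Vip, Nms and Prok2) at a summed 82.5 to 88.5 CPM in WT and 76.2 to 93.3 CPM in K146Q mice. The same sum was 165 to 178 CPM in WT pituitary, so it does not mark the nucleus, whereas Nms was at 0 in every pituitary and thyroid library. Marker lists of the thyroid libraries differed by genotype. The summed level of 6 adipose markers was 402 to 467 CPM in WT and 55.6 to 112 CPM in K146Q thyroid, with 6 of 6 called lower by limma, that of 3 parathyroid markers 3454 to 6409 against 523 to 1569, with 3 of 3 lower, and that of 4 proliferation markers 44.4 to 68.5 against 159 to 205, with 4 of 4 higher. The sum of 6 thyroid follicle markers was 299236 to 360952 against 89812 to 137280 CPM, but it was mostly Tg, which took 23.8% to 29.0% of WT and 7.97% to 11.5% of K146Q thyroid reads. Of the 6 markers 4 had a difference above 0, 2 were called higher and 1 lower. Of the 2 C cell markers, Calca was called lower and Calcb higher. In whole tissue, fewer cells of a type and less RNA per cell cannot be told apart, and the part of these shifts in any thyroid result was not tested.

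In WT mice the repressor and output genes led every tissue. Per kilobase of exon, the mean WT level of Nr1d1 was 52.1 ± 5.10 CPM per kb in hypothalamus, 54.9 ± 22.1 in pituitary and 59.6 ± 28.6 in thyroid (SD, n = 3). Dbp followed at 34.1 ± 0.740, 33.1 ± 6.31 and 31.6 ± 11.8 CPM per kb. Tef came next at 32.8 ± 0.111, 21.1 ± 1.37 and 13.1 ± 3.14 CPM per kb. Within each WT library of every tissue Nr1d1 stood above Dbp. Across mice the ranges of Nr1d1 and Dbp still overlapped in pituitary and thyroid, because Nr1d1 there spanned 29.3 to 68.6 and 27 to 80.7 CPM per kb. The cryptochrome Cry2 followed Tef in hypothalamus (21 ± 0.629) and pituitary (15.3 ± 1.69), whereas in thyroid Clock (9.36 ± 1.01) lay between Tef and Cry2 (7.95 ± 0.0807).

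Arntl and, in hypothalamus and pituitary, Npas2 sat at the low end of that order. Arntl was at 3.21 ± 0.101, 2.84 ± 0.592 and 2.51 ± 0.856 CPM per kb in hypothalamus, pituitary and thyroid, and Npas2 at 3.65 ± 0.191, 1.10 ± 0.124 and 4.66 ± 1.07. Their ranges did not overlap in hypothalamus, where Npas2 was the higher, or in pituitary, where Arntl was. Between them and Cry2 in hypothalamus lay Per3 (6.87 ± 0.595), Clock (6.60 ± 0.552), Per2 (6.11 ± 0.393) and Cry1 (6.08 ± 0.629), and each of these overlapped its neighbour in the order. In pituitary Per3 (14.5 ± 1.01) lay well above Cry1 (8.11 ± 2.06), Per2 (7.69 ± 3.87) and Clock (6.25 ± 1.01). In thyroid Per3 (2.33 ± 0.475) was the lowest of the 10, in a range overlapping those of Arntl and Cry1 (2.91 ± 1.14), with Per2 (5.06 ± 0.911) and Npas2 next above and overlapping each other.

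Differences between WT tissues were tested with limma on log2 values in one model of all 18 libraries. In all, 4 of the 10 clock genes differed between pituitary and hypothalamus, where 73% of all genes did, 5 between thyroid and hypothalamus (81.9% of all genes) and 6 between thyroid and pituitary (75.6%). Per3, the period gene with the steepest tissue pattern, stood above its hypothalamus level in pituitary, with a log2 difference of 1.08 (SE 0.19, limma adjusted p = 6.69e-05) and below its pituitary level in thyroid, with a difference of -2.63 (SE 0.19, adjusted p = 9.97e-10). Npas2 was lower in pituitary than in hypothalamus (-1.64, SE 0.24, limma adjusted p = 1.08e-05) and higher in thyroid than in pituitary (1.96, SE 0.24, adjusted p = 1.3e-06). Both cryptochromes were lowest in thyroid, with log2 differences from hypothalamus of -1.09 (SE 0.23, limma adjusted p = 0.000269) for Cry1 and -1.39 (SE 0.11, adjusted p = 1.3e-09) for Cry2. Tef was also lower in thyroid than in hypothalamus (-1.35, SE 0.21, limma adjusted p = 1.58e-05) and than in pituitary (-0.71, SE 0.21, adjusted p = 0.00635).

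Clock was higher in thyroid than in hypothalamus (log2 difference 0.50, SE 0.16, limma adjusted p = 0.00688) and than in pituitary (0.59, SE 0.16, adjusted p = 0.00255). The difference from pituitary did not pass with totals taken without the 10 highest genes (0.30, limma adjusted p = 0.084), a scaling that moved the median of all genes in that contrast to -0.27. Cry2 and Tef were lower in pituitary than in hypothalamus under the authors' scaling (-0.46 and -0.64, limma adjusted p = 0.000942 and 0.0124) and did not pass when these totals, or quantile normalization, were used. Tef also did not pass against hypothalamus in pituitary without mouse 2 (limma adjusted p = 0.0663), nor against pituitary in thyroid without mouse 1 (adjusted p = 0.104). Under those totals the median of all genes between WT pituitary and hypothalamus was 0.26. With mouse number as a replicate block, Cry1 was called higher in pituitary than in hypothalamus (0.38, limma adjusted p = 0.027). Arntl, Per2, Nr1d1 and Dbp were called by limma in none of the 3 tissue contrasts, and in pituitary these were also the 4 genes with the widest scatter between mice. Per2 was called lower in thyroid than in pituitary by DESeq2 (adjusted p = 0.0357), by limma with totals without the 10 highest genes (adjusted p = 0.0198) and by limma without mouse 1 (adjusted p = 0.00243), and without mouse 1 limma also called it between pituitary and hypothalamus, with the higher level in pituitary.

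**Figure D1:**
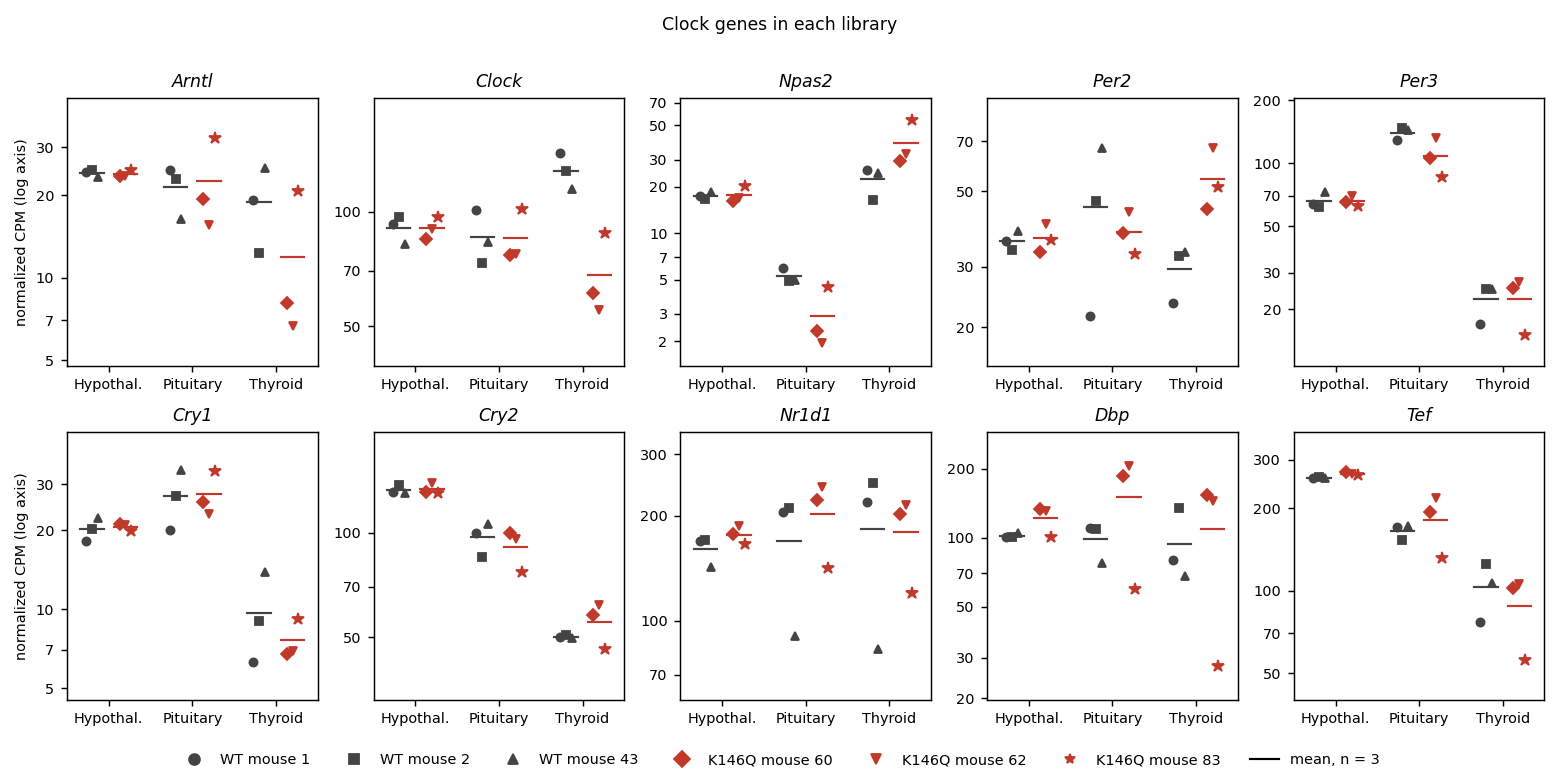
Level of each clock gene in CPM (log axis) in the 18 libraries, by tissue, with WT mice 1, 2 and 43 and K146Q mice 60, 62 and 83 as separate points. In hypothalamus the 6 libraries lie close together for every gene, and in pituitary and thyroid single mice stand apart, such as mouse 83 for Dbp (60.1 CPM in pituitary and 27.6 CPM in thyroid) and mouse 43 for Nr1d1 (90.3 and 83.1 CPM).

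That scatter depended on the tissue. The residual SD of log2 values within genotype had a median of 0.110 over the 10 clock genes in hypothalamus, against 0.0991 over all genes, 0.363 in pituitary, against 0.143, and 0.412 in thyroid, against 0.166. These medians stand at percentiles 55.3, 93.7 and 90.7 of all genes. Over genes with a mean of at least 10 CPM, the median residual SD was lower, at 0.0748, 0.116 and 0.135 in turn. All 10 clock genes reached that level in hypothalamus, so against genes of like level their median there was also the higher. Dbp had a residual SD of 0.163, 0.726 and 1.05 in hypothalamus, pituitary and thyroid, Nr1d1 of 0.119, 0.570 and 0.691, and Arntl of 0.0409, 0.434 and 0.693. Cry2 was the steadiest of the 10 genes in pituitary and thyroid, at 0.183 and 0.155. In hypothalamus the values ran from 0.0145 for Tef to 0.163 for Dbp.

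**Figure D2:**
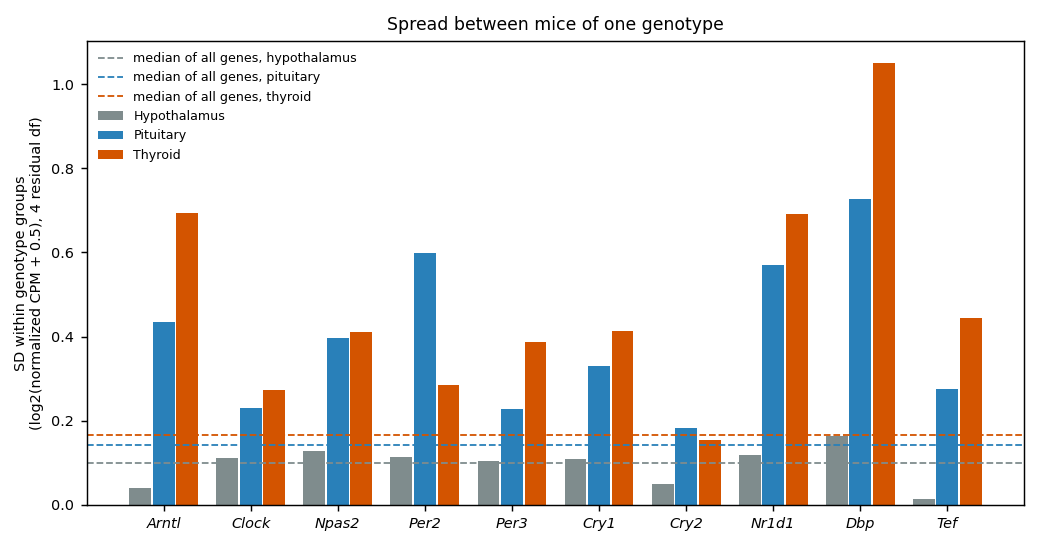
Residual SD of log2(CPM + 0.5) within genotype for each clock gene in hypothalamus, pituitary and thyroid, with the median over all genes of that tissue. In hypothalamus the median of the clock genes is 0.110, against 0.0991 over all genes and 0.0748 over genes with a mean of at least 10 CPM. All 10 lie above the median of all genes in pituitary, where it is 0.143, and all but Cry2 in thyroid, where it is 0.166.

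For several genes, libraries of the same mouse deviated alike in pituitary and thyroid. Dbp, which activates D-box promoters and has one of the deepest daily rhythms of the clock genes, was 134, 131 and 100 CPM in the hypothalamus of K146Q mice 60, 62 and 83. In pituitary it was 187, 207 and 60.1 CPM and in thyroid 154, 145 and 27.6 CPM in the same mice. Mouse 83 was thus the lowest in every tissue, and the mean of mice 60 and 62 exceeded it 1.32-fold, 3.27-fold and 5.43-fold in turn. In WT mice 1, 2 and 43 Dbp was 101, 101 and 105 CPM in hypothalamus, 110, 110 and 77.4 CPM in pituitary and 80.4, 135 and 68.4 CPM in thyroid, with mouse 43 lowest in the glands and highest in hypothalamus.

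Arntl moved the other way in mouse 83. It was 23.5, 23.6 and 24.6 CPM in the hypothalamus of mice 60, 62 and 83, 19.5, 15.6 and 32.4 CPM in pituitary and 8.13, 6.70 and 20.8 CPM in thyroid. Mouse 83 was highest in each tissue, by 1.05-fold, 1.85-fold and 2.81-fold over the mean of mice 60 and 62. The partners of Arntl shared that pattern. Npas2 in mouse 83 was 0.19, 0.61 and 0.53 above its genotype mean on the log2 scale in hypothalamus, pituitary and thyroid, and Clock 0.10, 0.27 and 0.40 above. The factors Tef (-0.02, -0.42 and -0.59) and Nr1d1 (-0.09, -0.47 and -0.53) and the period gene Per3 (-0.07, -0.30 and -0.52) were below in that mouse. Activators above their mean and output genes below it therefore occurred together in mouse 83 in all 3 tissues, with the smallest deviations in hypothalamus.

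Mouse 43 stood apart among WT mice, in other genes. Nr1d1 was 169, 170 and 142 CPM in the hypothalamus of mice 1, 2 and 43, 205, 211 and 90.3 CPM in pituitary and 219, 248 and 83.1 CPM in thyroid. Mouse 43 was lowest in each tissue, and the mean of mice 1 and 2 was 1.19-fold, 2.30-fold and 2.81-fold higher. Cry1, a repressor of the activating pair, was 18.2, 20.3 and 22.4 CPM in hypothalamus, 20.2, 27.1 and 33.9 CPM in pituitary and 6.32, 8.99 and 13.8 CPM in thyroid, so that mouse 1 was lowest and mouse 43 highest in each tissue. Per2 was lowest in mouse 1 and highest in mouse 43 in pituitary (21.6 and 66.8 CPM) and thyroid (23.5 and 33.1 CPM), with mouse 2 between (46.8 and 32.3 CPM). In hypothalamus Per2 was 35.7, 33.5 and 38.1 CPM, a narrower range. Arntl did not keep its order across the glands of mouse 43, at 16.3 CPM the lowest WT pituitary and at 25.1 CPM the highest WT thyroid.

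**Figure D3:**
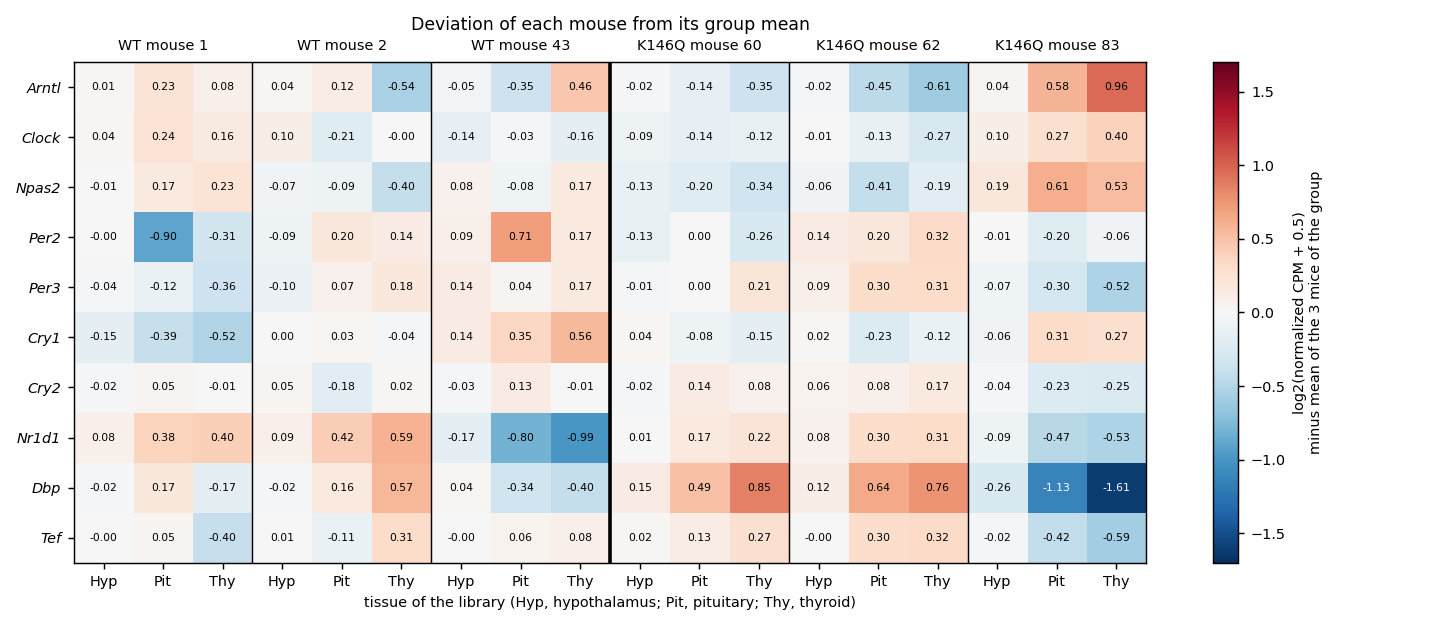
Deviation of each mouse from its genotype mean, in log2(CPM + 0.5), for the 10 clock genes in hypothalamus, pituitary and thyroid. In mouse 83 Dbp lies at -0.26, -1.13 and -1.61 and Arntl at 0.04, 0.58 and 0.96, and in mouse 43 Nr1d1 lies at -0.17, -0.80 and -0.99.

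Agreement by mouse number was tested with 4 mouse terms within genotype, added to the 6 tissue and genotype means and judged by limma's moderated F test over 17140 genes (8 residual degrees of freedom). None of the 10 clock genes passed the adjusted threshold (adjusted p = 0.38 to 0.62), which 0.0117% of all genes did. At an unadjusted p under 0.05 all 10 did, against 8.03% of all genes. Several of the 10 ran closely together or in opposed directions over these libraries, so they do not count as 10 separate observations. The unadjusted limma p was 0.000576 for Nr1d1, 0.00139 for Dbp, 0.00243 for Npas2, 0.00281 for Cry1, 0.0048 for Clock, 0.0064 for Per3, 0.024 for Per2, 0.0344 for Tef, 0.0447 for Cry2 and 0.0488 for Arntl. With DESeq2 on the recovered reads, Nr1d1 and Npas2 passed the adjusted threshold (adjusted p = 0.000955 and 0.0439), and with the pituitary and thyroid libraries only, a choice made after the data had been seen, Nr1d1 did (limma adjusted p = 0.0124). The size averaged over the 3 tissues was -1.0 (SE 0.18) for Dbp in mouse 83 and -0.65 (SE 0.12) for Nr1d1 in mouse 43, both on the log2 scale.

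Part of this count rested on mouse 83. Without its 3 libraries, 4 of the 10 genes had an unadjusted p under 0.05, against 5.04% of all genes: Nr1d1, Cry1, Per2 and Per3. Each had a limma adjusted p of 0.852. The order of the 3 WT mice was the same in pituitary and hypothalamus for 2 of the 10 genes (16.5% of all genes), in thyroid and hypothalamus for 3 (16.3%) and in thyroid and pituitary for 5 (18.7%). For the K146Q mice these counts were 3 (19.8%), 6 (19.8%) and 4 (23.2%). A deviation of one sign and over 0.2 on the log2 scale in both pituitary and thyroid was found in mouse 83 for 9 of the 10 genes, against 4.77% of all genes, and in mouse 43 for 3, against 4.86%. This last measure was chosen after the values had been seen. Its fixed cutoff is passed more easily by genes that scatter widely between mice, as most clock genes did in pituitary and thyroid. The share over all genes is therefore not a like background for it.

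Other measures also differed by mouse. The summed level of 8 immediate early genes, among them Fos, Egr1 and Arc, which rise within minutes of stimulation, was 128, 121 and 328 CPM in the hypothalamus of mice 60, 62 and 83, and 953, 1012 and 569 CPM in their pituitaries. In thyroid it was 491, 465 and 546 CPM. Mouse 83 was thus the highest in hypothalamus and thyroid and the lowest in pituitary. The 6 glucocorticoid response genes, 2 of which (Per1 and Tsc22d3) also stand among the other clock and rhythmic genes, summed to 291, 332 and 414 CPM in the hypothalamus of mice 1, 2 and 43, to 580, 539 and 729 CPM in pituitary and to 321, 417 and 525 CPM in thyroid. Mouse 43 was highest in all 3 tissues. It was also highest in each tissue for the sum of 2 red cell markers, at 299 CPM against 170 and 108 in hypothalamus, 569 against 215 and 377 in pituitary and 1646 against 337 and 308 in thyroid (mice 1 and 2). In the WT thyroid, 4 skeletal muscle markers summed to 256, 3713 and 5380 CPM in mice 1, 2 and 43, and in the WT pituitary the immediate early genes to 2193, 381 and 1598 CPM. The part of these measures, of collection time and of handling in the differences between mice was not tested.

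Across the 18 libraries, each centred on its group mean, some clock genes ran together or in opposed directions and others did not. Pearson's r was 0.880 for Arntl with Npas2, -0.869 for Arntl with Dbp, -0.899 for Npas2 with Dbp, 0.874 for Dbp with Tef, 0.920 for Per3 with Tef and -0.854 for Cry1 with Nr1d1. Those pairs were picked from among the largest in size. Other pairs were near 0, such as Per2 with Dbp (0.052), Clock with Cry1 (-0.037) and Per3 with Cry1 (-0.0090). These are descriptions over 18 libraries that come from 6 mice. The 5 genes most like Dbp by the same measure, among 13872 genes, were Bhlhe41 (r = 0.973), Aldoc (0.936), 2210016L21Rik (0.931), Tab1 (0.902) and Slc7a4 (0.898). Those most like Arntl were Parp1 (r = 0.950), Apln (0.921), Kif21a (0.896), Gpatch2 (0.893) and Tcf12 (0.892).

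The nearest relation to Dbp, Bhlhe41 (DEC2), encodes a basic helix-loop-helix repressor of the activating pair, and it belongs to the 20 other clock and rhythmic genes. Of these 20 genes, none passed the adjusted threshold of limma's mouse test, 3 passed with DESeq2, and 9 had an unadjusted limma p under 0.05, against 8.03% of all genes. The smallest were those of Tsc22d3, Bhlhe41 and Ciart, a repressor of the loop, with unadjusted values of 0.000463, 0.00156 and 0.00357 in limma's test over all genes. The mean of mice 60 and 62 exceeded mouse 83 by 1.2-fold, 3.71-fold and 2.99-fold for Ciart and by 1.13-fold, 2.02-fold and 2.07-fold for Bhlhe41 in hypothalamus, pituitary and thyroid. Both genes shared the direction of Dbp in that mouse. Bhlhe41 had been picked by its r with Dbp over these same libraries and Ciart by its small p in the mouse test. Their agreement with Dbp is therefore a description and adds no support. The 2 genes of the whole table that passed the mouse test were Mid1 and Sec63 (limma adjusted p = 0.000188 and 0.0111), named after their values were seen.

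The genotype comparison asks whether loss of the SUMO site went with another level of the clock genes in each tissue of the thyroid axis. In hypothalamus none of the 10 genes differed by limma (adjusted p = 0.998 to 1), as for 0% of all genes. At an unadjusted p under 0.05, 4.09% of all genes and 1 of the 10 clock genes were found. That gene was Dbp (log2 difference 0.24, SE 0.09, limma adjusted p = 0.998), and edgeR and DESeq2 called none of the 10. Tef, at 258, 259 and 257 CPM in WT and 271, 266 and 264 CPM in K146Q mice, was the sole clock gene whose groups did not overlap (9.15% of all genes), with a log2 difference of 0.05. Over the 10 genes the 95% intervals of the difference ran from -0.19 to 0.45. Without mouse 83, Dbp was called higher in K146Q hypothalamus (0.37, SE 0.05, limma adjusted p = 0.0396), where 0.0383% of all genes were called. Each mouse was left out in turn, and the fits without mouse 83, here and below, were singled out after its values had been seen. Leaving out a mouse seen to deviate narrows the spread, so their p-values describe the weight of that mouse only.

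In pituitary none of the 10 genes passed the limma test, where 9.86% of all genes did. Npas2 came nearest. It was 5.96, 4.92 and 4.96 CPM in WT mice 1, 2 and 43 and 2.32, 1.94 and 4.46 CPM in K146Q mice 60, 62 and 83, a log2 difference of -0.83 (SE 0.25, limma adjusted p = 0.0673). It was the one clock gene whose groups did not overlap, as was so for 31% of all genes. With DESeq2 on the recovered reads or with totals without the 10 highest genes Npas2 passed (adjusted p = 0.0436 and 0.0457). Per3, at 129, 147 and 144 CPM in WT and 106, 131 and 86.0 CPM in K146Q mice, had a difference of -0.39 (SE 0.13, limma adjusted p = 0.105), and mouse 62 overlapped the WT range.

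Dbp in pituitary showed how much a single animal weighed. Its mean was 99.2 ± 18.9 CPM in WT and 151 ± 79.5 CPM in K146Q mice (SD, n = 3), a log2 difference of 0.43 (SE 0.39, limma adjusted p = 0.536), with K146Q mice both above and below all WT mice. Without mouse 83 the difference was 1.0 (SE 0.15, limma adjusted p = 0.00537) and that of Npas2 was -1.13 (SE 0.18, adjusted p = 0.0062), and these 2 of the 10 genes were called, against 8.24% of all genes. Mouse 83 had already been seen to deviate in both genes, so smaller errors without it follow in part from that choice. Without mouse 62 instead, Per3 was the clock gene called (-0.54, limma adjusted p = 0.0315). Nr1d1 was 205, 211 and 90.3 CPM in WT and 221, 242 and 142 CPM in K146Q pituitary, a difference of 0.32 that did not pass, and its sign turned without mouse 43 (-0.08). Beside these values, the summed level of 8 pituitary hormone and lineage markers was 122392 to 249734 CPM in WT and 100051 to 110241 CPM in K146Q pituitary. Of these markers 4 had a difference above 0, 2 were called higher and 1 lower by limma, and Gh alone took 10.8% to 20.7% of WT and 6.77% to 8.20% of K146Q pituitary reads. Their part in the pituitary differences was not tested.

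In thyroid 2 of the 10 clock genes differed, against 37.8% of all genes. Clock was 143, 128 and 115 CPM in WT and 61.2, 55.1 and 88.0 CPM in K146Q mice, so that each K146Q mouse was below each WT mouse. Its log2 difference was -0.94 (SE 0.17, 95% interval -1.34 to -0.53, limma adjusted p = 0.00496), and the ratio of the means was 0.530. Per2 was 23.5, 32.3 and 33.1 CPM in WT and 44.4, 66.9 and 51.3 CPM in K146Q mice, with each K146Q mouse above each WT mouse. Its log2 difference was 0.86 (SE 0.18, 95% interval 0.43 to 1.28, limma adjusted p = 0.00905), and the ratio of the means was 1.83. Both genes were also called without each mouse in turn. In each direction 1 of the 10 genes was called, where 19.7% of all genes were higher and 18.1% lower.

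Npas2, which can stand in for Clock as the partner of BMAL1, was 25.8, 16.5 and 24.7 CPM in WT and 29.2, 32.4 and 53.7 CPM in K146Q thyroid. The groups did not overlap and the log2 difference was 0.75 (SE 0.25, limma adjusted p = 0.0523), opposite in sign to that of Clock. edgeR and DESeq2 on the recovered reads called it (adjusted p = 0.0494 and 0.00748), as did limma without mouse 60 (0.92, adjusted p = 0.0437). Clock, Npas2 and Per2 were the 3 clock genes whose groups did not overlap in thyroid, against 52.3% of all genes. Arntl was 18.9 ± 6.44 CPM in WT and 11.9 ± 7.77 CPM in K146Q thyroid (-0.76, SE 0.42, limma adjusted p = 0.192), and Dbp 94.5 ± 35.2 and 109 ± 70.6 CPM (-0.08, SE 0.63), with overlapping groups. For Dbp the difference of mean log2 values was negative and that of mean CPM positive, and edgeR and DESeq2 gave log2 differences of 0.210 and 0.214.

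The other thyroid differences were small or wide in error. They were 0.07 for Nr1d1, -0.25 for Tef, -0.28 for Cry1, 0.13 for Cry2 and -0.02 for Per3 on the log2 scale, none of which passed. The median over the 10 genes was -0.05, against -0.03 over all genes. In pituitary it was 0.01 and in hypothalamus 0.02. Without mouse 83, 4 of the 10 genes were called in thyroid, against 34.1% of all genes: Arntl (-1.24, SE 0.30, limma adjusted p = 0.0235), Clock (-1.13, SE 0.11, adjusted p = 0.00184), Per2 (0.89, SE 0.22, adjusted p = 0.0277) and Cry2 (0.25, SE 0.07, adjusted p = 0.0433).

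**Figure D4:**
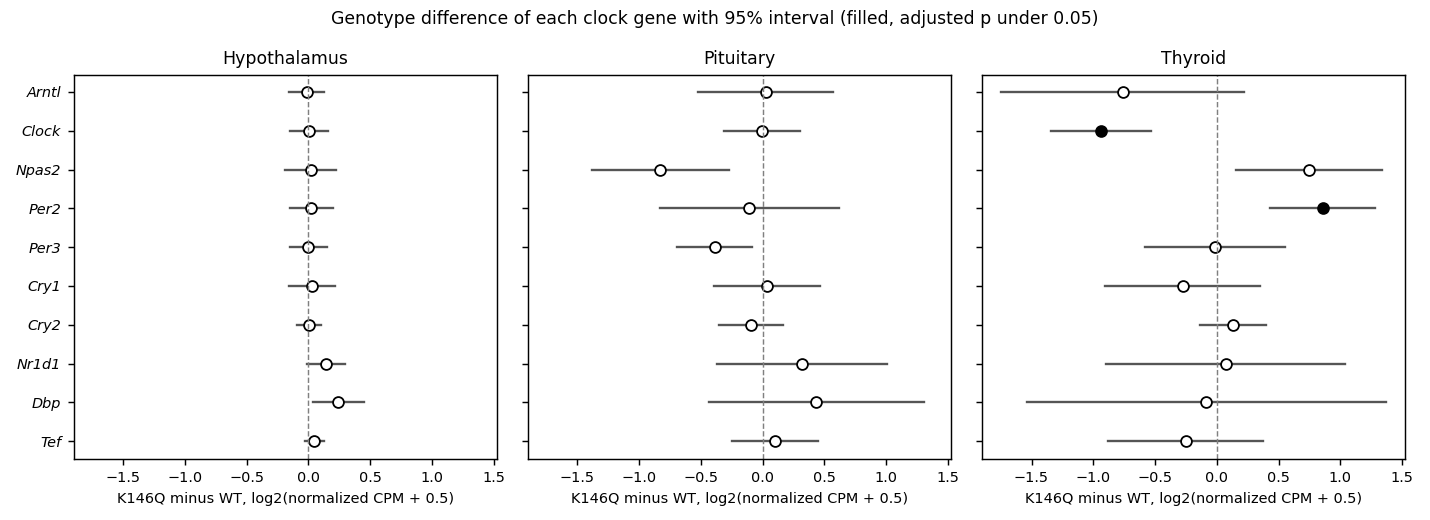
Log2 difference of K146Q from WT for the 10 clock genes in hypothalamus, pituitary and thyroid, with 95% intervals, from limma with all mice. Filled points mark genes that pass the adjusted threshold, which are Clock (-0.94) and Per2 (0.86) in thyroid. Fits that left out a mouse are not drawn.

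Whether the genotype difference itself differed between tissues was tested with interaction terms over all 18 libraries. Between pituitary and hypothalamus none of the 10 genes passed (3.24% of all genes did). Between thyroid and hypothalamus Clock did, by -0.94 (SE 0.22, limma adjusted p = 0.00364), 1 of 10 against 30.8% of all genes. Between thyroid and pituitary Clock (-0.93, SE 0.22, limma adjusted p = 0.00365) and Npas2 (1.57, SE 0.35, adjusted p = 0.00211) did, 2 of 10 against 33.8%. The estimated Npas2 difference was negative in pituitary and positive in thyroid. Neither passed in its own tissue by limma with all mice (adjusted p = 0.0673 and 0.0523), so the interaction shows only that the differences differ.

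Because each mouse number recurs in all 3 tissues, the same terms were also fitted with mouse number as a replicate block. Then 3 clock genes differed between thyroid and hypothalamus, Clock (limma adjusted p = 0.000336), Npas2 (0.73, adjusted p = 0.0204) and Per2 (0.83, adjusted p = 0.0447). Between thyroid and pituitary the block added Per2 (0.97, limma adjusted p = 0.0218, against 0.0649 without it). Without mouse 83, Arntl was called in both contrasts of thyroid (-1.21 and -0.97, limma adjusted p = 0.0163 and 0.0425), and Npas2 was called between pituitary and hypothalamus (-1.06, adjusted p = 0.0291).

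Other members of the loop were read from a list of 20 clock and rhythmic genes. None differed by genotype in hypothalamus, by limma, where 2 had an unadjusted p under 0.05, against 4.09% of all genes. The smallest were those of Usp2, Bhlhe41 and Nr1d2, whose log2 differences were 0.20, 0.14 and 0.11. In pituitary 2 of 20 rose, against 6.36% of all genes, and none fell. Rorb, a ROR activator, was 37.2, 33.6 and 33.2 CPM in WT and 48.7, 49.9 and 45.4 CPM in K146Q mice (0.47, SE 0.08, limma adjusted p = 0.00798), and Hlf, the PAR bZIP relative of Dbp and Tef, was 120, 97.5 and 117 CPM in WT and 152, 153 and 143 CPM in K146Q mice (0.43, SE 0.09, adjusted p = 0.0153). Neither overlapped between groups, as was so for 31% of all genes in pituitary. Hlf did not pass without mouse 60 or 62, and Rorb not without mouse 62 (limma adjusted p = 0.0777, 0.0733 and 0.0517). With no trend in limma's variance Hlf also did not pass (adjusted p = 0.0567).

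In thyroid 8 of the 19 listed genes that were tested differed, 5 higher and 3 lower, against 37.8% of all genes. Nfil3 (E4BP4), the bZIP repressor that competes with Dbp, Tef and Hlf at D-boxes, was 4.10, 2.85 and 6.01 CPM in WT and 35.3, 46.0 and 55.3 CPM in K146Q mice. Its log2 difference was 3.28 (SE 0.26, limma adjusted p = 0.000145), and the ratio of the means was 10.5. Bhlhe40 (DEC1), a repressor of the activating pair, rose from 65.7, 66.3 and 59.6 CPM to 105, 118 and 98.0 CPM (0.74, SE 0.09, adjusted p = 0.000947 by limma). Rora, the activator at ROR elements, fell from 73.6, 67.7 and 78.9 CPM to 39.1, 41.8 and 36.1 CPM (-0.91, SE 0.09, limma adjusted p = 0.000392). For none of these 3 did the groups overlap, as was so for 52.3% of all genes in thyroid.

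Hlf fell in thyroid, from 16.5, 26.3 and 20.6 CPM to 11.5, 9.11 and 3.40 CPM (-1.47, SE 0.40, limma adjusted p = 0.0231), and without mouse 2 did not pass (adjusted p = 0.0654). Usp2, a deubiquitinase of rhythmic expression, was 19.4, 25.1 and 35.7 CPM in WT and 15.2, 8.58 and 8.62 CPM in K146Q mice (-1.27, SE 0.28, limma adjusted p = 0.00999). Both had all K146Q mice below all WT mice, where 52.3% of all genes had groups that did not overlap. Timeless (0.64, SE 0.15, limma adjusted p = 0.0143), Csnk1d, a kinase of the period proteins (0.27, SE 0.07, adjusted p = 0.0257), and Tspan4 (0.74, SE 0.25, adjusted p = 0.05) were the remaining 3 called higher. Tspan4 lay just under the threshold and did not pass under 5 alternatives with all mice or in 5 of 6 fits that left out 1 mouse, without mouse 1, 2, 43, 60 or 62 (limma adjusted p up to 0.168). Csnk1d did not pass under quantile normalization, with totals without the 10 highest genes or with no trend (adjusted p = 0.072, 0.115 and 0.0511), nor without mouse 1, 43, 62 or 83 (limma adjusted p up to 0.105). Rorb was below the filter in thyroid.

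**Figure D5:**
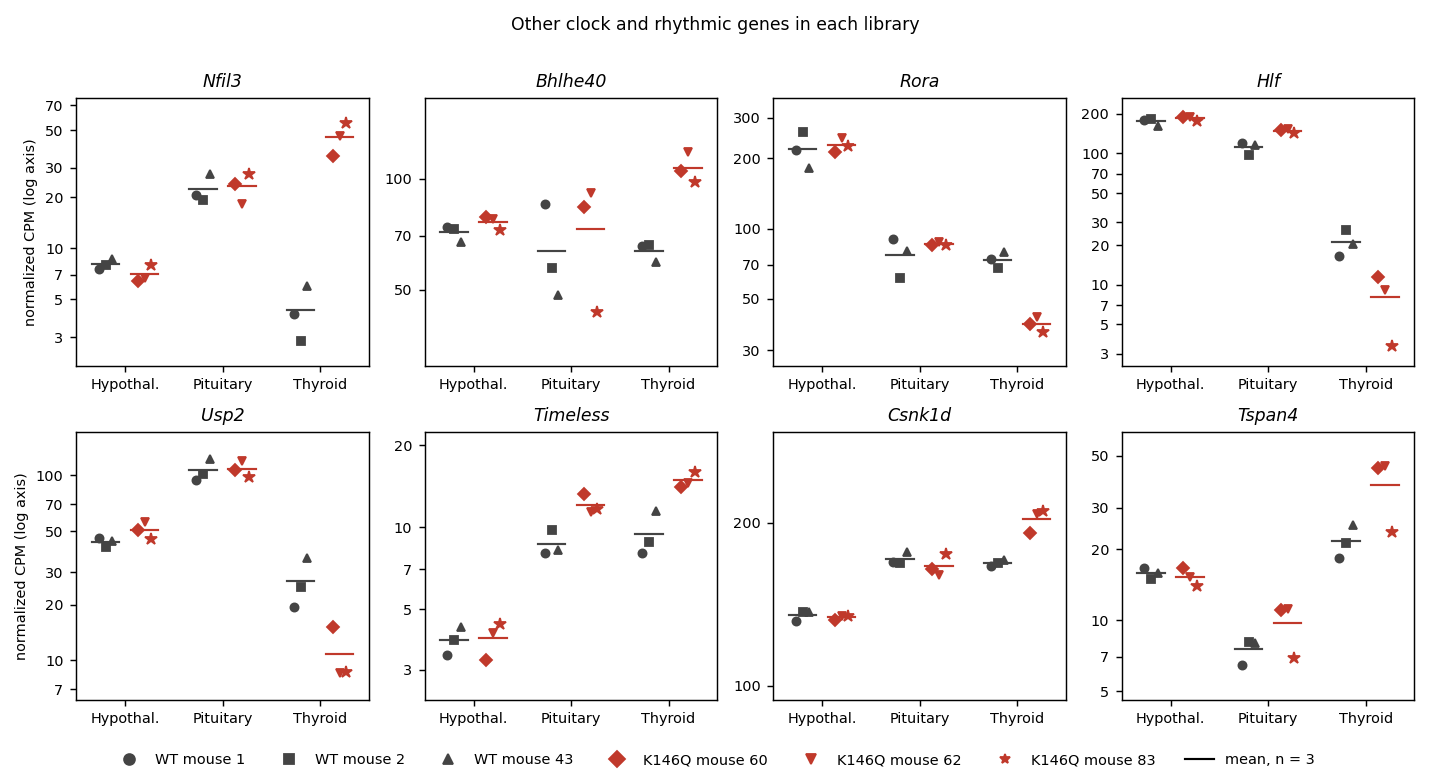
Level in CPM (log axis) of other clock and rhythmic genes in the 18 libraries, by tissue and genotype. In thyroid the 3 K146Q mice lie above the 3 WT mice for Nfil3 (35.3 to 55.3 against 2.85 to 6.01 CPM) and below them for Rora (36.1 to 41.8 against 67.7 to 78.9 CPM). Of all genes in thyroid, 52.3% had groups that did not overlap.

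The markers that moved with genotype in thyroid moved beside each of these thyroid results. The adipose and parathyroid sums were lower in each K146Q thyroid than in each WT thyroid, as were Clock, Rora, Hlf and Usp2, and the proliferation sum was higher, as were Per2, Nfil3 and Bhlhe40. The sum of 8 immediate early genes was also higher in K146Q thyroid (465 to 546 against 193 to 384 CPM), although 2 of them were called higher and 1 lower. The sum of 3 leukocyte markers was higher too (65.2 to 80.3 against 28.0 to 40.2 CPM), with 2 called higher and none lower. Each marker of these lists was above 0 in some library. The part of cell composition in the thyroid differences of the clock genes was not tested.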

How the data were processed

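RNA of hypothalamus, pituitary and thyroid was measured by RNA-Seq in 3 WT and 3 K146Q mice (18 libraries). Per the submitters' processing notes, the tools were bcl2fastq 2.17, Bowtie2 2.1.0 and RSEM 1.2.15 with build mm10. The strand setting of the count is not given in the sources used here. The values are a signal as deposited by the authors: read counts scaled to a common total (CPM) and divided by a library factor, normalized over all 18 libraries together, with 24054 genes per table. Values were whole multiples of 1 read in 100% of 432972 cases (tolerance 0.01), so depth could be recovered (14902330 to 21230050 reads), and 3 reads were worth 0.133 to 0.190 CPM. The tables were joined by symbol (24027 genes, without 27 symbols that did not join). The deposited tables also hold fold changes and p-values of the authors' comparisons, which were not used.

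Genes that reached 0.5 CPM in 3 or more libraries were tested with limma 3.58.1 (trend) on log2(value + 0.5), a scale that understates changes of low genes, and p-values were adjusted by Benjamini-Hochberg over all genes tested (threshold 0.05). Genotype was fitted within each tissue (6 libraries), and interactions and WT tissue contrasts over all 18. Alternatives were other pseudocounts, filters and scalings, no trend, edgeR 4.0.16 and DESeq2 1.42.0 on the recovered reads, each mouse left out, and mouse number as a replicate block. Mouse numbers were taken to pair the tissues, since each mouse number recurs in the 3 tissues and the series took its tissues from 3 mice of each genotype. The correlation of deviations between tissues of 1 mouse number was -0.067 to 0.236 across 13872 genes. For thyroid with pituitary it was 0.236 in mouse 83 and 0.060 to 0.102 in the other mice. Libraries of different numbers were not compared in this way, so these values do not test the pairing. Levels per kilobase use the union of exons of GENCODE M21. Scripts were tested on simulated data.

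The 10 genes and all lists were chosen with earlier results of these data known. The 10 clock genes were named in every comparison. Of the 20 other clock and rhythmic genes, those called by genotype were named or, where none was, the 3 with the smallest p. Genes of other lists were named beside a result only, and the 5 genes most like Dbp and Arntl by Pearson's r.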

Additional observations from a re-analysis of the deposited data

Results flagged for a closer look

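The genotype difference itself differed between tissues, by limma's interaction test over all 18 libraries, for these clock and rhythmic genes (values are differences of log2 differences). Thyroid minus hypothalamus was -0.94 for Clock (adjusted p = 0.00364), -0.97 for Rora (0.000635), -1.55 for Hlf (0.00546), -1.48 for Usp2 (0.000864), -0.30 for Btrc (0.0297), 3.47 for Nfil3 (3.39e-07), 0.62 for Timeless (0.0283) and 0.28 for Csnk1d (0.00725).

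Thyroid minus pituitary was -0.93 for Clock (limma adjusted p = 0.00365), 1.57 for Npas2 (0.00211), -1.08 for Rora (0.000216), -1.90 for Hlf (0.00109), -1.30 for Usp2 (0.00209), -0.26 for Btrc (0.0486), 3.24 for Nfil3 (5.88e-07), 0.31 for Csnk1d (0.00336), 0.56 for Csnk1e (0.00298) and -0.45 for Rorb (0.0473). Rorb was at 0.120 to 0.316 CPM in thyroid, near the level of 3 reads. The calls of Btrc against pituitary, of Rorb and of Timeless did not hold under several alternatives with all mice. Leaving out 1 mouse at a time, Btrc passed in 2 of 6 fits against hypothalamus (limma adjusted p up to 0.112) and 1 of 6 against pituitary, Timeless in 1 of 6 and Rorb in 1 of 6. Csnk1d against hypothalamus did not pass with totals without the 10 highest genes (limma adjusted p = 0.0699). With groups of 3 mice, no test for a single outlying library was run.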

How the results depend on the processing

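With 3 mice per genotype and no collection hour, differences between mice and genotypes rest on the same few animals. The number of clock genes called in pituitary was 1 with totals without the 10 highest genes and 1 with DESeq2 (0 in the report). Between thyroid and hypothalamus the replicate block gave 3. Between WT pituitary and hypothalamus quantile normalization gave 2. The adjusted mouse test gave 2 with DESeq2 and 1 with the pituitary and thyroid libraries only, an alternative chosen after seeing the data. The counts under the other alternatives with all mice were within 1.5 times those reported. The replicate block moved no other count of clock genes by over 1.5 times.

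Leaving out each mouse in turn, the number of clock genes called by genotype was 0 to 1 in hypothalamus, 0 to 2 in pituitary and 2 to 4 in thyroid. For the interactions it was 0 to 1 (pituitary and hypothalamus), 1 to 2 (thyroid and hypothalamus) and 2 to 3 (thyroid and pituitary). For the WT contrasts it was 3 to 6, 5 to 5 and 6 to 6 in the same order. The mouse test gave 0 to 0, and 4 to 10 at an unadjusted p under 0.05.

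Differences near 0 that had not passed changed sign. In hypothalamus Clock was at -0.0056 under quantile normalization and -0.00080 with totals without the 10 highest genes, and Cry2 at -0.0059 under quantile normalization. In pituitary Arntl was at -0.0304 and Cry1 at -0.0216 with those totals. In thyroid Nr1d1 was at -0.0060 under quantile normalization, -0.0253 with those totals, -0.0253 with edgeR and -0.0214 with DESeq2, Per3 at 0.0122 with edgeR and 0.0169 with DESeq2, and Dbp at 0.210 with edgeR and 0.214 with DESeq2. The cause was not tested.

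With each mouse left out, hypothalamus differences ranged from -0.0401 to 0.00298 (Arntl), -0.0636 to 0.0541 (Clock), -0.0757 to 0.0818 (Npas2), -0.0454 to 0.0863 (Per2), -0.0512 to 0.0658 (Per3), -0.0442 to 0.102 (Cry1) and -0.0245 to 0.0306 (Cry2). In pituitary they ranged from -0.267 to 0.249 (Arntl), -0.142 to 0.115 (Clock), -0.560 to 0.244 (Per2), -0.159 to 0.210 (Cry1), -0.185 to 0.020 (Cry2), -0.0814 to 0.552 (Nr1d1) and -0.0491 to 0.312 (Tef). In thyroid they ranged from -0.194 to 0.244 (Per3), -0.534 to 0.00241 (Cry1), -0.424 to 0.364 (Nr1d1), -0.510 to 0.721 (Dbp) and -0.451 to 0.0417 (Tef).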
